A study of Mus musculus with 8 samples.

Results

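Foxk1 peaks on chromosome 10 numbered 1976, or 6.83% of the 28933 peaks in the deposited list of enrichment of Foxk1 over input. They were chosen by their chromosome in that list, which was itself selected on the measured enrichment: every peak in it had a q-value (the false discovery rate of a peak) under 0.01. The cells were mouse embryonic fibroblasts (MEFs), cells of connective tissue taken into culture, kept in DMEM without treatment. Sonicated chromatin was immunoprecipitated and sequenced (ChIP-seq), with 3 libraries made with a Foxk1 antibody, 3 with control IgG and 2 of input. The sources used here do not give strain, genotype or embryonic age of the fibroblasts. Each peak came with 1 signal value, for Foxk1 against input, and with none per library. There was thus no spread between replicates, no depth and no value for IgG behind any result below. Enrichment that the Foxk1 antibody shares with IgG cannot be told apart. All values below describe this single list, without a test.

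Foxk1 belongs to the forkhead family of transcription factors, which contact DNA through a winged-helix domain. In fibroblasts and muscle precursors it is known mainly as a repressor and as a regulator of autophagy, glycolysis and growth signalling downstream of mTOR. A ChIP-seq peak marks a place where fragments carried down with the antibody pile up over input. It shows where the protein, or something bound to it, was in contact with DNA, but not which gene was affected.

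Peaks lay along almost the whole of chromosome 10, from a first summit at 3133834 to a last one at 129984887 (mm9, 1-based). The first 3 Mb held none. Mouse chromosomes carry the centromere at this end, and the assembly starts there with undetermined bases to which no read can be assigned. Each peak was 460 bp wide around its summit, and together the peaks covered 903 kb. With the highest peak end as the length of the chromosome, there were 15.2 peaks per Mb. This was the fourth highest density of the 20 chromosomes compared (1 to 19 and X), below chromosomes 19 (21.9), 11 (17.3) and 15 (16.7).

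Counted in windows of 1 Mb, chromosome 10 alternated between crowded and thinly occupied stretches. After the first 3 windows, 127 remained, with a median of 13 peaks and quartiles of 7.5 and 23. The counts were far apart: 14 windows held 30 peaks or more and 20 windows held 5 or fewer. The former contained 507 peaks (25.7%) and the latter 39 (1.97%). The variance of the counts was 7.45 times their mean, and 50% of all peaks lay in the 33 fullest windows, or 26.0% of them.

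**Figure D1:**
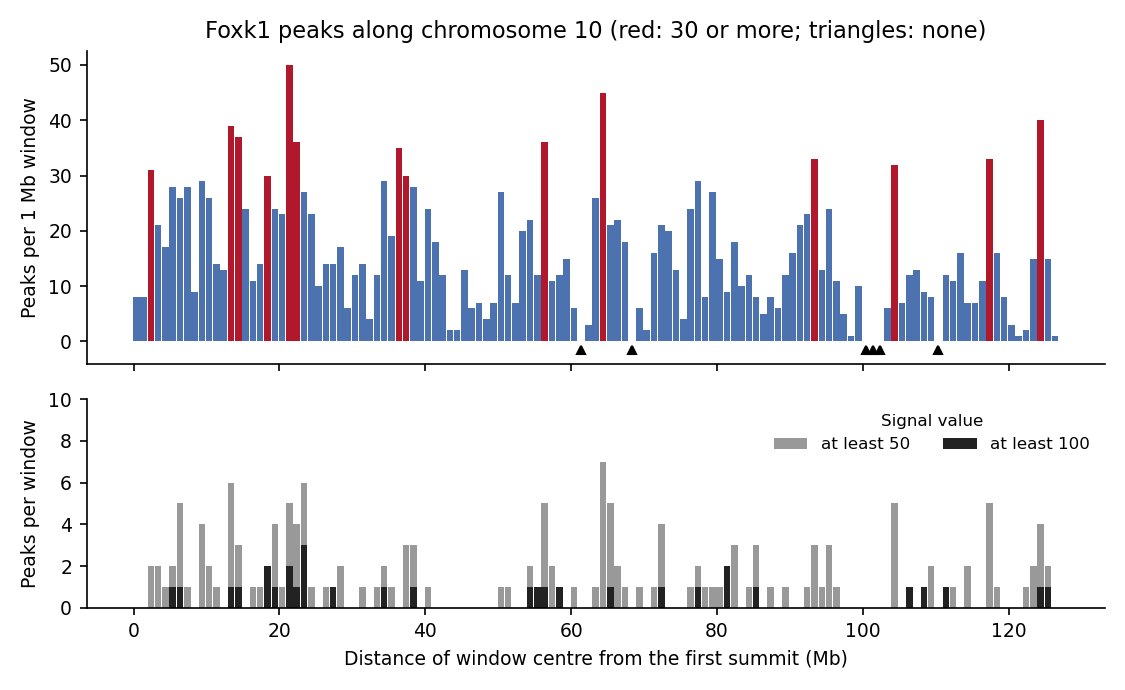
Upper panel: number of Foxk1 peaks in each 1 Mb window of chromosome 10 (vertical axis) against the distance of the window's centre from the first summit in Mb (horizontal axis), with windows of 30 or more peaks in red and the 6 windows without a peak marked by triangles. Lower panel: peaks per window with a signal value of at least 50 (grey) and of at least 100 (black, drawn over the grey). The highest bar, of 50 peaks, stands in the crowded part left of 40 Mb, and 3 of the triangles stand side by side.

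The fullest window ran from 24000001 to 25000000 and held 50 peaks with a median signal value of 17.7 and a highest one of 104. The signal value is the authors' score for each peak; the sources used here do not give its scale. From general knowledge of the mouse map, Ccn2 was placed in this window, and the other genes named below were placed likewise. Ccn2 encodes connective tissue growth factor, a matrix protein strongly made by fibroblasts. Next came 67000001 to 68000000 with 45 peaks and 127000001 to 128000000 with 40. In the former, 7 peaks had signal values of 50 or more, the most of any 1 Mb window on chromosome 10. The windows from 16000001 to 17000000 and from 17000001 to 18000000, which adjoin, held 39 and 37 peaks. The one from 25000001 to 26000000, which adjoins the Ccn2 window, held 36. The window from 59000001 to 60000000 also held 36, and 35 lay from 39000001 to 40000000. The last of the 10 fullest windows started at 96000001 and 120000001, with 33 peaks each.

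Crowding was not the same as strength. The window starting at 39000001 had 35 peaks, but its strongest reached a signal value of only 49.6. The window from 84000001 to 85000000 had 9 peaks and among them 2 of the strongest on the chromosome, with signal values of 215 and 127. Over windows, fuller ones tended to hold a higher maximum (Spearman's rho 0.61 over the 121 windows with a peak, given as a description, since a window with more peaks has more chances to contain a high one). The median signal value of a window moved little with its count (rho 0.18). In windows of 30 or more peaks the median signal value was 18.1 and 10.7% of peaks reached 50. In windows of 15 to 29 peaks these values were 17.2 and 7.84%, and in windows of 6 to 14 peaks they were 16.7 and 6.45%. In the 14 windows of 1 to 5 peaks, the median was 13.99 and 1 of 39 peaks reached 50.

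**Figure D2:**
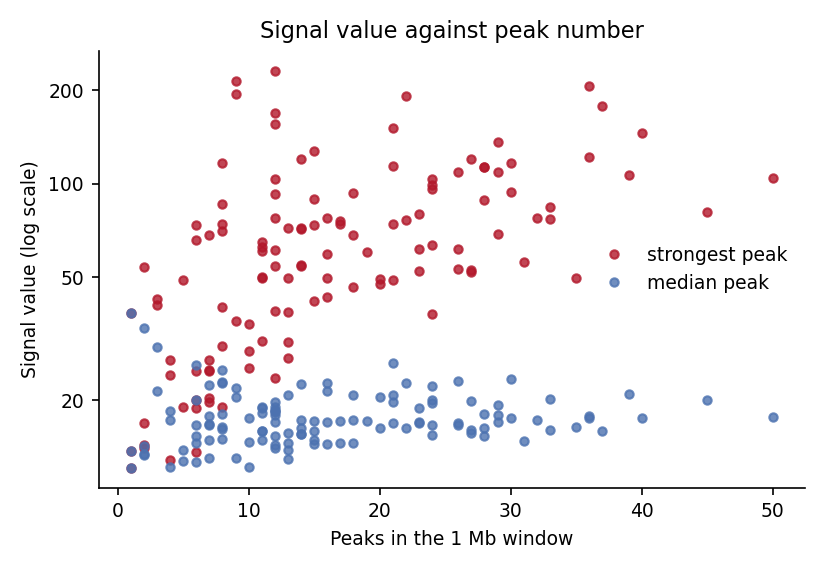
Signal value on a log scale (vertical axis) against the number of peaks in a 1 Mb window of chromosome 10 (horizontal axis), with 1 red point for the strongest and 1 blue point for the median peak of each of the 121 windows with a peak. Red points climb from left to right, with exceptions such as 232 at 12 peaks and 215 at 9, while blue points mostly stay near 17.

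In blocks of 10 Mb, the density was highest from 20000001 to 30000000, with 251 peaks or 25.1 per Mb, and from 10000001 to 20000000, with 230 or 23.0 per Mb. The first block, counted after its empty 3 Mb, had 19.9 per Mb. Between 30000001 and 100000000 the blocks stayed between 12.4 and 16.7 per Mb. The lowest values were 7.3 per Mb from 100000001 to 110000000 and 9.4 in the block that followed, and the last block, which starts at 120000001, had 13.4. Strong peaks were also most frequent in the block from 20000001 to 30000000, where 25 reached a signal value of 50 and 9 (of 31 on the chromosome) reached 100. As a share of the block's own peaks, however, those of at least 50 made up 9.96% there, against 11.8% from 60000001 to 70000000 and 11.2% in the last block.

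Empty stretches were few. Of the 127 windows of 1 Mb, 6 (4.72%) held no peak: those starting at 64000001, 71000001 and 113000001, and 3 in a row from 103000001 to 106000000. On the median chromosome this share was 8.83%, and it ranged from 0 on chromosome 19 to 40.2% on X. Of the other dense chromosomes, 11 had 9.24% and 15 had 0.99%. The 3 windows in a row belonged to the longest stretch between neighbouring summits on chromosome 10, which ran over 3.73 Mb from 102447638 to 106173602. Over the 20 chromosomes, the longest such stretch had a median of 3.76 Mb. The peaks at the borders of the 3.73 Mb stretch were weak, with signal values of 13.2 and 14.9. The next stretches were 1.61 Mb from 112414859 to 114023621 and 1.54 Mb from 128441911 to 129984887. The latter ends at the last peak of the chromosome, which stood alone and had a signal value of 12.1. Stretches of 1.50 Mb from 63805847, 1.24 Mb from 70826397 and 1.09 Mb from 46280469 completed the 6 that were longer than 1 Mb, and the remaining 4 of the 10 longest measured 0.958, 0.917, 0.87 and 0.83 Mb. Few peaks in a stretch means few detected at the authors' threshold, and does not show that Foxk1 was absent.

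At 100 kb, 751 of 1270 windows (59.1%) held at least 1 peak, after the first 30 windows. This share ranked 3 from the top among the 20 chromosomes, whose median was 45.6%. It was 67.2% on chromosome 19, 59.3% on chromosome 15 and, to the same rounding, 59.1% on chromosome 11 as well. A single peak was found in 278 windows, 2 to 4 peaks in 362 and 5 or more in 111. Those 111 windows contained 727 peaks, or 36.8%. The longest unbroken row of occupied windows had 22, from 38600001 to 40800000, with 77 peaks. Next came a row of 17 from 68300001 to 70000000 with 37 peaks, and a row of 16 from 16700001 to 18300000 with 62. The longest row of empty windows had 36, from 102500001 to 106100000.

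The fullest 100 kb window, from 16700001 to 16800000, held 14 peaks, which formed 3 close groups and 2 summits apart from them. The first group began at 16710114 with a signal value of 45.0 and went on with 3 weaker summits over 5.3 kb. A second group had the strongest summit of the window, 107 at 16730033, with companions of 47.3 at 16731875 and 76.5 at 16732503. The next group, of 5 summits, started at 16754931 and reached 38.3. A summit of 11.9 at 16723374 lay between the first and second groups, at under 10 kb from each, and the last summit, with 15.8, stood apart at 16795606.

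The second fullest, from 9300001 to 9400000, held 13 peaks and was the most uneven of the 4 fullest. Its strongest summit, 109 at 9360613, lay 433 bp from one of 45.4. Others of 88.8 and 50.8 lay at 9368578 and 9323346. The median of the window was nevertheless only 13.7, since most of the other summits were near the lowest value of the list. Summits from 9353163 to 9375322 followed each other at less than 10 kb and made up the chain with the most peaks on chromosome 10, 9 in 22.2 kb; others with fewer peaks spanned up to 38.4 kb.

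A further pair of windows held 12 peaks each. From 40000001 to 40100000 most peaks were weak, with a median of 18.0, and the strongest, of 93.7, stood at the far end at 40092379. From 120000001 to 120100000 the peaks were strong as a group: the weakest had 15.25, the median was 26.7, and 4 exceeded 50. Those 4 had 84.1 at 120019729, 71.1 at 120073396, 69.7 at 120084347 and 55.4 at 120053825. The rest of the 10 fullest windows of this size held 10 or 11 peaks and started at 53100001, 127000001, 24000001, 25100001, 66300001 and 67500001; a window starting at 116500001 also held 10. Of these, the one starting at 127000001 contained the strongest peak, with a signal value of 146. Which window came first depended on how peaks were counted: with summits under 2000 bp apart merged, the fullest was the one starting at 120000001, with 10 regions.

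**Figure D3:**
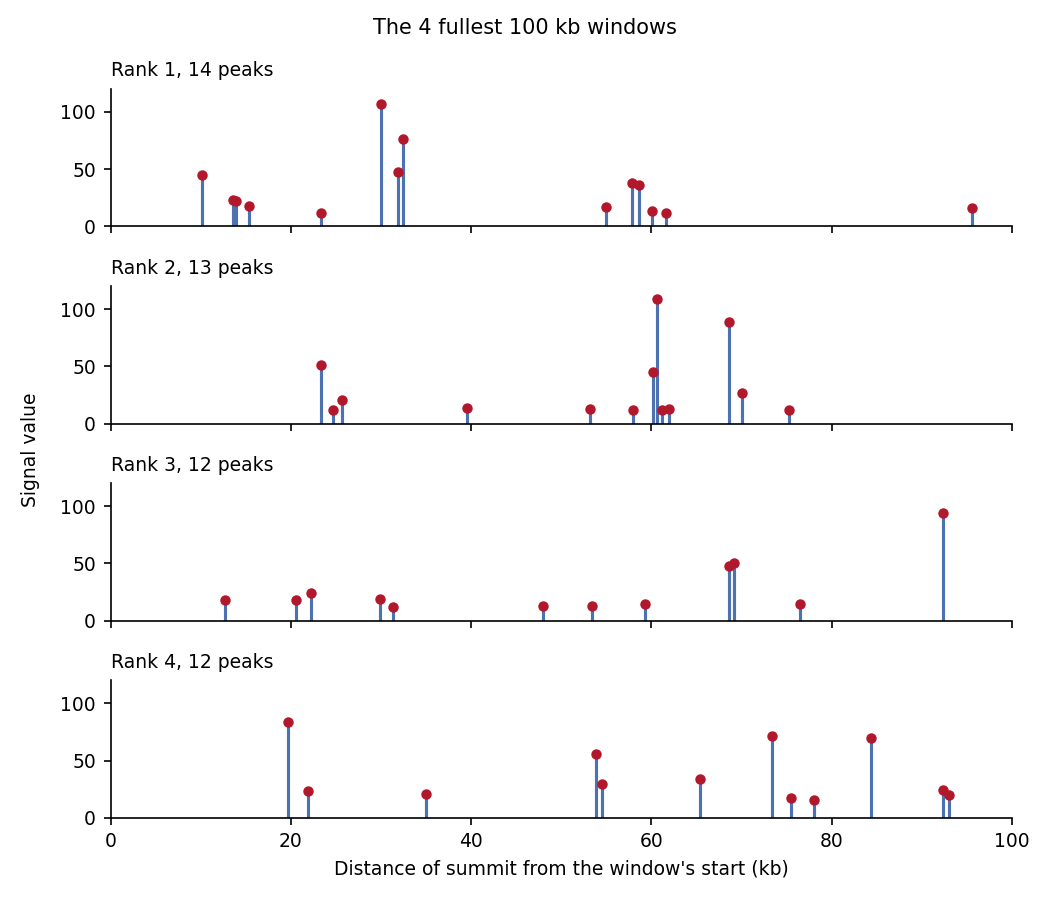
The 4 fullest 100 kb windows of chromosome 10, from the fullest at the top, with the signal value of each peak (vertical axis, 1 line and point per summit) against the distance of its summit from the start of the window in kb (horizontal axis). In the second panel 2 summits of 109 and 88.8 rise above the others, the highest of which have 50.8 and 45.4. In the fourth panel 4 summits exceed 50.

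The strongest peak of the chromosome lay from 114688314 to 114688773. Its signal value of 232 placed it at rank 30 in the whole list. It stood in a quiet neighbourhood: the only other peak within 50 kb was 949 bp away, with a signal value of 35.8. The second ran from 84038777 to 84039236, with 215, and had a companion of 46.0 at 1369 bp. The third ran from 25363203 to 25363662, with 207, and overlapped one of 14.7 whose summit was 353 bp away. The fourth to seventh peaks started at 111013027, 57252058, 17954551 and 61222544, with signal values of 194, 192.5, 178 and 169. Those starting at 109921887, 75355728 and 127058629, with 156, 151 and 146, closed the first 10.

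These 10 were chosen as the strongest, so weaker neighbours follow from the choice. Of all peaks on the chromosome, only 41.2% reached a signal value of 20. Another peak lay within 10 kb of 8 of the 10 and within 50 kb of all 10. Further down, the peak at rank 24, with 109 at 26969734, had none within 50 kb. Neighbours were common for other peaks too. Of all 1976 peaks, 885 (44.8%) had no other within 10 kb, and 105 (5.31%) had none within 100 kb. The matching share at 50 kb was not counted. The peak nearest to each of the 10 had a signal value of 11.5 to 19.6 in 7 cases, and of 35.8, 46.0 and 77.4 in the others. The peak starting at 127058629 had 13 others within 50 kb, the most of the 10, and the strongest of those 13 reached 39.1.

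Signal values of at least 100 were found in 31 peaks on chromosome 10 (1.57%, against 1.47% of all listed peaks) and of at least 50 in 160 (8.10%, against 7.97%). At least 20 was reached by 814 (41.2%, against 41.8%). The shares of strong peaks thus lay close to those of the whole list. The median was 17.2, with quartiles of 13.2 and 27.3, against 17.8, 13.5 and 27.6 for all peaks. It was the second lowest median of the 20 chromosomes, but they ranged only from 16.4 on X to 18.7 on chromosome 11. None of the 10 highest peaks of the list was on chromosome 10. The weakest peaks carried signal values of 11.321 to 11.327 for the lowest 5, with q-values of 0.00994 and 0.00995, just inside the limit of the list. Values outside it were not analysed here. Of the 1976 peaks, 207 (10.5%) had a signal value of at most 12, and 247 (12.5%) shared the lowest q-value of 0.00014, against 12.3% of the whole list.

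**Figure D4:**
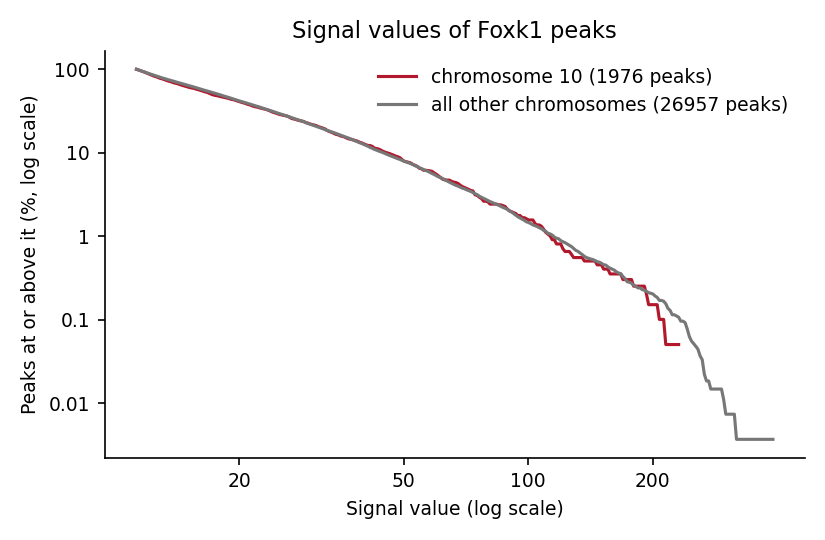
Percentage of peaks at or above a signal value (vertical axis, log scale) against that signal value (horizontal axis, log scale), for the 1976 peaks of chromosome 10 (red) and for all other chromosomes (grey). The curves run together up to a signal value of about 100, and the red one ends at 232.

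The 31 peaks of at least 100 were spread over 26 windows of 1 Mb, and 25 of them had no other such peak within 50 kb. The exceptions were 3 pairs. Summits at 84039007 and 84085092, with signal values of 215 and 127, were 46.1 kb apart. A distance of 41.0 kb separated 26574727 and 26615755, with 110 and 120, and 49.2 kb separated 21510066 and 21559268, with 117 and 110.5. The last pair lies in the 1 Mb window of Sgk1, the serum- and glucocorticoid-induced kinase.

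The median distance from a summit to the next was 23.2 kb, with quartiles of 5.19 and 66.2 kb. The classes of distance were filled much as on the other chromosomes up to 500 kb. Against all other chromosomes together, X included, the largest contrast in proportion lay at long distances: 0.304% of neighbouring pairs on chromosome 10 were over 1 Mb apart, against 1.24% on the other chromosomes, and 1.16% were 500 kb to 1 Mb apart, against 2.10%. The other dense chromosomes had similarly few pairs over 1 Mb apart, with 0.381% on chromosome 11, 0.29% on chromosome 15 and 0 of 1341 pairs on chromosome 19. At the short end, 65 pairs (3.29%) overlapped, with summits under 460 bp apart, against 2.58% on the other chromosomes. Distances of 460 to 1000 bp made up 6.43% against 5.95%, and those of 1000 to 2000 bp made up 5.42% against 5.49%. Among the dense chromosomes, overlapping pairs numbered 55 of 2102 on chromosome 11, 41 of 1723 on chromosome 15 and 50 of 1341 on chromosome 19, beside the 65 of 1975 on chromosome 10.

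**Figure D5:**
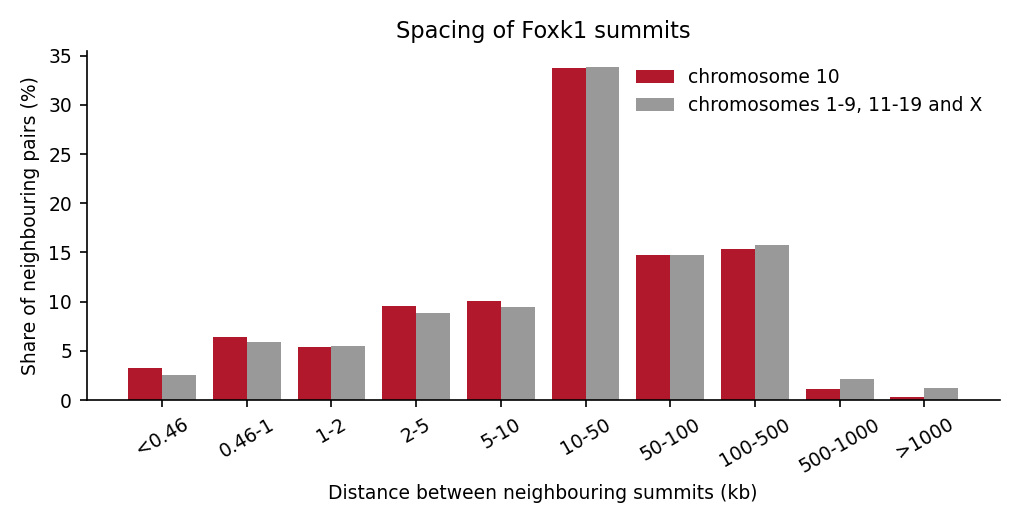
Share of neighbouring pairs of summits in percent (vertical axis) by the distance between the summits in kb (horizontal axis, classes of unequal width), for chromosome 10 (red) and for the other autosomes and X (grey). Bars of both colours are of similar height up to 500 kb, and the red bars are the lower ones in the last 2 classes.

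The closest summits were 199 bp apart, at 19824378 and 19824577, with signal values of 64.7 and 19.5. In the 65 overlapping pairs the stronger peak had a median signal value of 25.2 and the weaker one 14.6, and the median ratio of stronger to weaker was 1.64. Pairs at 460 to 2000 bp gave a ratio of 1.54, those at 2 to 10 kb gave 1.62, and pairs over 10 kb apart gave 1.53. Close summits were thus about as unequal as distant ones. Both members reached 50 in 0 of the 65 overlapping pairs and in 2 of the 234 at 460 to 2000 bp. At 2 to 10 kb this held for 5 of 388 pairs, and at over 10 kb for 2 of 1288. The 2 pairs under 2000 bp were 24542060 and 24542769, with 103 and 58.5, in the Ccn2 window, and 41997619 and 41998097, with 59.8 and 88.5.

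Chains in which each summit followed the last at under 10 kb differed in length. Of all peaks, 885 (44.8%) belonged to no chain, 502 stood in pairs, 393 in chains of 3 or 4, and 196 (9.92%) in 33 chains of 5 or more. On the median chromosome the last share was 6.29%, and chromosome 10 ranked 6 of 20. Among the other dense chromosomes it was 16.6% on 19, 10.5% on 11 and 5.51% on 15. Peaks outside any chain had a median signal value of 16.5, and 5.42% of them reached 50. In pairs these values were 18.3 and 10.6%, and in chains of 5 or more they were 17.6 and 9.69%. The chains themselves could be long and weak, as from 8219176 to 8238942, where 8 peaks had no signal value above 20.6. They could also be led by 1 strong peak, as the 8 from 127033890 to 127058859, where the last summit had 146 and the median was 19.01. A chain of 8 from 96078825 to 96096344, in the window of the anti-proliferative gene Btg1, reached 76.7.

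Lone peaks were the weaker ones as a group. At least 100 kb from any other peak stood 105 (5.31%), with a median signal value of 14.3, against 17.2 for the whole chromosome. Of these, 5 (4.76%) reached 50, against 8.10% of all its peaks. The 20 that stood at least 250 kb from any other were no weaker, with a median of 15.2. Among them 1 reached 50: the peak from 22032210 to 22032669, which had 54.5 and its nearest neighbour 317 kb away. The loneliest, besides the last one of the chromosome, lay from 124545900 to 124546359, with 13.7 and its neighbour 669 kb away.

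Known loci were set against these counts only at the scale of whole 1 Mb windows, since an annotation of mm9 was not used here. From general knowledge of the mouse map, 38 of a list of 51 genes on this chromosome could be placed inside a window; the other 13 lie at a border or were not known well enough. The 51 names are all on chromosome 10 in RefSeq's GRCm38.p6 table, and the order of the 38 genes there is the order of their windows. A shared order does not show that a gene lies in the window given. The mm9 positions were not looked up, so each placement is unverified. A count for a window says nothing on which gene, if any, a peak belongs to. The list was written with earlier results of these data known. The 38 genes lay in 31 windows, of which 22 (71.0%) had more than the median of 13 peaks, as had 48.0% of all 127 windows. The 127 include those 31 and the windows without a peak. With genes picked by hand, the difference was not tested and is not read as a trait of these loci.

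The genes are taken below in loose groups by function, which were not planned beforehand and were not compared. Immediate early and stress genes come first. Besides Ccn2 with 50 peaks, the window of Ddit4, which encodes an inhibitor of mTORC1 induced by stress, had 36 peaks and a strongest signal value of 122. That of Cited2, a co-regulator of hypoxia-driven transcription, had 37 and 178. Sgk1 had 30 peaks in its window with the highest median of the 38, at 23.5. Gadd45b, a growth arrest factor, had 29 with a strongest signal value of 136.5, and Dusp6, a phosphatase of ERK, had 24 with 99.2. Cdk4, Gli1 and Ddit3, a transcription factor of the unfolded protein response, share a window with 15 peaks and a strongest value of 89.2. Among signalling genes, Stat2 and Stat6 share a window with 40 peaks and a strongest value of 146, and the window of Fyn, a Src-family kinase, held 35 peaks, none of which reached 50. Tnfaip3, an inhibitor of NF-kappaB signalling, shares with Perp a window of 24 peaks whose strongest was 38.1.

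Windows of some metabolic genes and of a clock gene come next. Hk1, a hexokinase, shares with Col13a1 a window of 12 peaks, 1 of which had a signal value of 169. Pfkl, a phosphofructokinase subunit, had 13 peaks in its window, none above 49.8. Sirt1, a deacetylase, had 15 with a highest of 41.9, and Stk11, the kinase upstream of AMPK, had 24 with 96.2. The window of Cry1, a repressor of the circadian clock, had 9 peaks and a highest of 215.

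Matrix and growth factor genes varied as well. The window of the collagen genes Col6a1 and Col18a1 held 20 peaks, none above 49.2, and that of Timp3, an inhibitor of metalloproteinases, held 18 with a highest of 93.6. Igf1, an insulin-like growth factor, had 12 with 92.7, and Kitl, the ligand of the Kit receptor, had 11 with 50.03. Gja1, the main gap junction gene of fibroblasts, had 20 with 47.3. The fewest peaks were in the window that Mdm2, the ubiquitin ligase of p53, shares with Ifng, with 7 and a highest of 68.1. Hmga2, a chromatin protein of embryonic cells, had 11 with 49.7, and this window ends where the one with 33 peaks from 120000001 begins. The 4 other transcription factor genes placed were Plagl1 with 29 peaks, Hsf2 with 22, Myb with 14 and Elk3 with 12, and strongest signal values of 68.7, 192.5, 54.3 and 61.0. The windows of Marcks, Txnrd1, Socs2 and Cdk2 held 12, 27, 21 and 15 peaks.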

How the data were processed

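Bowtie aligned the reads to mm9, per the submitters' processing notes. The track line, one of the file headers, names the peaks as Foxk1 against input. The sources used here name no peak caller and do not say whether libraries were pooled. For each peak the authors deposited a signal value, a score of no stated scale, and a q-value on a linear scale. Depth is unknown, and groups of libraries (Foxk1, IgG, input) entered no comparison.

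Chromosome 10 was taken from the first column, and positions were written 1-based. Windows of 1 Mb and 100 kb started at base 1, and peaks were assigned by summit. Pairs under 460 bp apart overlap. Chains joined summits under 10 kb apart. Other chromosomes were treated alike, without Y. Counting was tested on simulated positions. Items named were the 10 strongest peaks, fullest windows and longest empty stretches. Members and lists were chosen with earlier results of these data known. Gene names come from RefSeq's GRCm38.p6 table, whose coordinates were not used with mm9. Planned analyses of gene positions and of sequence at summits need an mm9 genome and were not run. Alternatives were stronger peaks, a q-value limit, merged summits and shifted windows. Computation used Python 3.11.15, numpy 2.4.6, pandas 2.3.3 and matplotlib 3.10.9.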

Additional observations from a re-analysis of the deposited data

How the results depend on the processing

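Keeping the peaks that reach the median signal value of the whole list, or those with a q-value of at most 0.001, leaves part of the list by construction. The number of peaks on chromosome 10 went from 1976 to 943 and 963, windows of 1 Mb without a peak from 6 to 12 and 12, the fullest 1 Mb window from 50 peaks to 26 and 27, and the median distance between neighbouring summits from 23.2 kb to 43.9 and 42.6 kb. The fullest 1 Mb window was then the one starting at 67000001 for the former and still that starting at 24000001 for the latter. Merging summits under 2000 bp apart gave 1677 regions, and it and shifting windows by 0.5 of their length moved the other counts by less than 1.5 times. The fullest 100 kb window, with 14 peaks from 16700001, gave way under all 4 alternatives to the stretch at 120000001 (120050001 with shifted windows), with 10 to 15 peaks. Leaving out a replicate was not possible, and no paired analysis was possible because the list holds no value per library.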
